A study of Macaca fascicularis with 10 samples.

Results

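Diploid embryonic stem cells (ESCs) of the cynomolgus macaque, Macaca fascicularis, were compared with arrays labelled as fibroblasts of the same species. Each sample was hybridised to 1 Affymetrix Rhesus Macaque array. The comparison took its members from the labels: 3 arrays of ESCs derived from ICSI blastocysts, and the 2 arrays titled MF rep1 and MF rep2, together 5 of the 10 arrays of the series. ICSI is intracytoplasmic sperm injection, so these ESCs carry a maternal and a paternal genome, and their label gives a diploid karyotype. ICSI ESC 1 is line MES1 at passage 12, ICSI ESC 2 is line MES2 at passage 4, and ICSI ESC 3 is line MES3 at passage 4. MF 1 and MF 2 are labelled diploid female somatic fibroblasts at passage 14 and passage 15, with 1 name for both. The other 5 arrays are parthenogenetic haploid ESCs (PG-haESC). PG-haESC 1, 2, 3 and 4 are line MPH1 at passages 8, 11, 7 and 9. PG-haESC 5 is line MPH2 at passage 4, so most of these arrays are passages of 1 line. All 5 entered the shared estimate of the spread and are quoted as a second set of stem cells. No genetic modification is given for any group. The growth protocol attached to all arrays, MF included, describes haploid ESCs on feeder cells in medium with Y27635 and Thiazovivin. The sources used here do not name the species of the feeder cells. Each ICSI ESC line has 1 array, and line and passage cannot be told apart for ICSI ESC 1. Nothing ties the MF arrays to separate animals or cultures, so p-values measure the spread between these samples, which may be technical.

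Pluripotent cells are held in their state by a small circuit of transcription factors led by POU5F1 and SOX2. Primate ESCs in conventional culture resemble the epiblast after implantation, the state called primed, and depend on FGF and on activin or NODAL signals. Skin is built differently. Its basal keratinocytes divide and move outward, switch to KRT1 and KRT10, and end as flattened dead cells whose cornified envelope and extracellular lipids form the barrier. Below lie the hair follicles, glands and pigment cells, and a dermis of collagen made by fibroblasts and crossed by vessels, nerves and immune cells.

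Values are linear signals that the authors made with the MAS5 algorithm, and their trimmed mean was 500 on every array. With no detection calls in the table, the signal that an unexpressed gene would give is not known. A signal at or under its array's median, here called dim, was taken as no more than a bound. Where 2 of the 3 ICSI ESC arrays were dim, the fold of the signals is followed by the fold with dim signals raised to the array median ("raised"). Some genes passed the filter through the MF arrays alone. With 1 MF array left out they cannot be tested, so counts called without MF 1 or MF 2 are given beside the number of called members still tested. Array medians ran from 76.8 on ICSI ESC 2 to 121 on MF 1. Log2 signals correlated between arrays with a median r of 0.881 within the ICSI ESC, 0.945 between the MF arrays and 0.649 between the groups. Over 8576 probe sets above the 75th percentile on all 10 arrays, MF 1 and MF 2 differed by a median of 0.08 on the log2 scale, against 0.18 to 0.31 for the 3 ICSI ESC pairs and 0.15 to 0.32 for the 10 PG-haESC pairs. RNA measures moved with the groups. The ratio of 3' to 5' signal of GAPDH was 4.07 and 3.62 on MF 1 and 2 and 1.83 to 2.04 on the ICSI ESC, and that of actin was 8.39 and 9.14 against 2.30 to 5.62. The part of these ratios in the results was not tested. In bulk samples, fewer cells of a type and less RNA per cell cannot be told apart.

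The labels were checked against marker genes. The 6 pluripotency markers on the array summed to 53396, 60174 and 69403 on ICSI ESC 1, 2 and 3 and to 558 and 682 on the MF arrays. Of 13 fibroblast markers 11 were on the array, PDGFRA and PDGFRB not among them, and 10 of the 11 lay above the array median on both MF arrays, with TWIST2 dim. Their sum was 189429 and 189651 on MF 1 and 2. ICSI ESC 1 came close at 155145, while ICSI ESC 2 and 3 gave 13900.0 and 33058. The MF arrays also carried markers that a fibroblast label does not cover. All 9 measured markers of differentiating keratinocytes, the cells of the outer epidermis, lay above the median on both MF arrays and summed to 280679 and 280926, against 4004 to 5208 on the ICSI ESC. All 4 hair follicle markers did so too, with sums of 32169.6 and 31032 against 172 to 226. Endothelial markers summed to 4702 and 4867 against 213 to 583, and leukocyte markers to 1747 and 1749 against 91.4 to 226. KRT5, KRT14, KRT15 and COL17A1, which define the basal layer, were not measured under their own names. Because these values go against a label of fibroblasts alone, the samples are called the MF arrays here and given no other name.

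**Figure D1:**
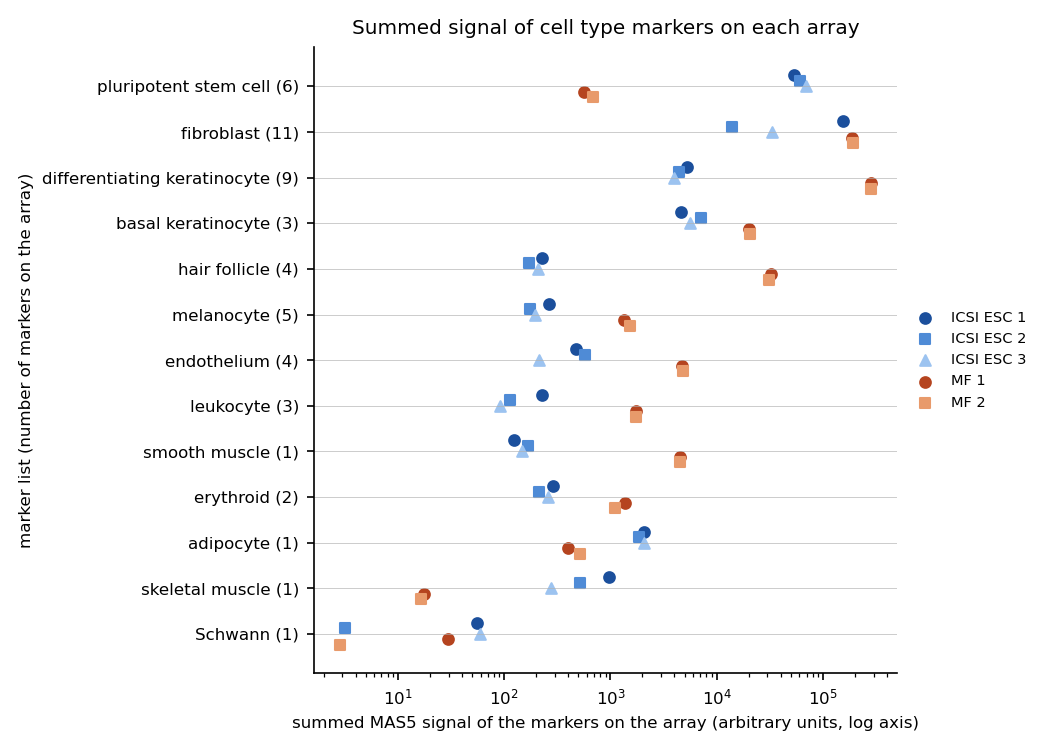
Summed signal of the markers of 13 cell types (x axis, arbitrary MAS5 units, log scale) on each ICSI ESC and MF array (points); the number of markers on the array stands in brackets. The MF arrays lie to the right of the ICSI ESC for 9 lists, to the left for pluripotency, adipocyte and skeletal muscle, and overlap with them for Schwann, and ICSI ESC 1 reaches 155145 on the fibroblast list, near the MF arrays at 189429 and 189651.

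The contrast was broad. Of 34139 probe sets tested, 11150 (32.7%) passed an adjusted p under 0.05 in limma, with 5633 (16.5%) higher in the ICSI ESC and 5517 (16.2%) higher on the MF arrays, a split of 50.5% that became 61.6% with arrays centred on their median. By gene, 39.5% of those tested were called: 2625 of 11676 (22.5%) higher in the ICSI ESC and 1986 (17.0%) higher in MF. Large differences lay mostly on the MF side: 410 genes were at least 10-fold higher in MF and 123 in the ICSI ESC, and 47 against 2 were at least 100-fold. The median difference over all tested genes was 0.08 (log2, ICSI ESC minus MF), and list medians below are read beside it. List counts below are read beside the 22.5% and 17.0%. The scaling moves this zero: the median over probe sets was -0.06 as deposited, 0.15 after quantile normalization and 0.23 after centring. Against the PG-haESC, the same 3 ICSI ESC arrays differed in 67 genes (0.574%).

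**Figure D2:**
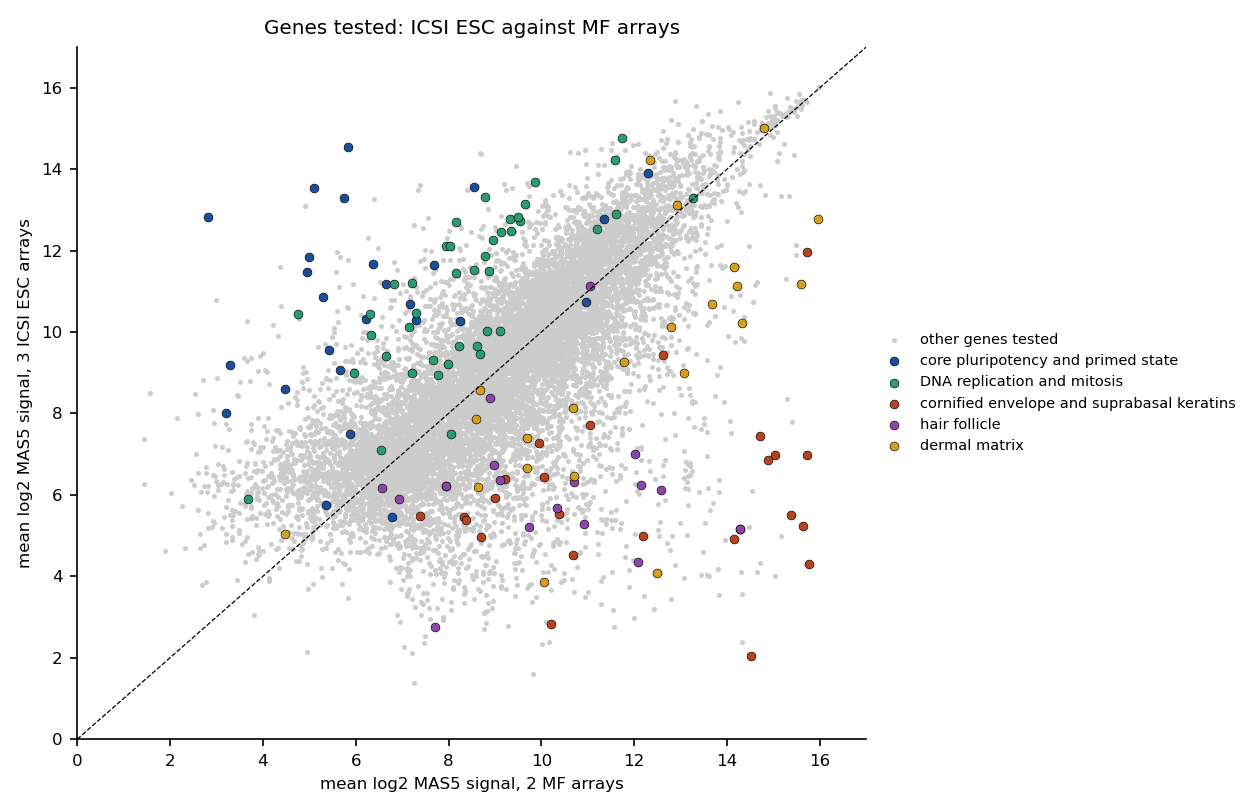
Mean log2 signal of each tested gene on the 2 MF arrays (x axis) and the 3 ICSI ESC arrays (y axis), with members of 5 groups of lists in colour and equal signal as a dashed line. Most pluripotency, replication and mitosis genes lie above the line, and most cornified envelope, keratin and hair genes lie far below it.

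The genes with the largest differences on the ICSI ESC side were led by the pluripotency circuit. POU5F1 (OCT4), the factor on which the pluripotent state depends, read 24278, 20723 and 27189 on ICSI ESC 1, 2 and 3 and 40.6 and 80.03 on MF 1 and 2. Every ICSI ESC array was bright and both MF arrays were dim, and POU5F1 was at least 207-fold higher in the ICSI ESC (limma adjusted p = 1.8e-08). Its partner SOX2 read 9051, 11208 and 10048 against 43.8 and 66.3, at least 86.98-fold higher (limma adjusted p = 8.6e-09). LIN28B, an RNA-binding protein that blocks maturation of let-7 microRNAs, read 5197, 8325 and 9005 against 5.27 and 9.41, at least 63.1-fold higher (limma adjusted p = 6.9e-09). LIN28B has 2 tested probe sets, of which the other was not called. The mean of both differed by 5.66 (log2, ICSI ESC minus MF). No array of one group overlapped the other for these genes. ZIC2, a zinc finger factor of the primed epiblast and neural plate, stood at 15735, 11559 and 9450.0 against 38 and 31.3, at least 104-fold higher. Nutrient carriers were among the 12 leading genes: the glucose transporter SLC2A3 read 18497, 20490.3 and 25412 against 386 and 447 (51.2-fold), and the arginine and lysine transporter SLC7A3 read 3387, 5838 and 6453 against 73.3 and 81.1 (at least 43.5-fold). The rest were IGF2BP3 (74.8-fold), the RNA helicase DDX10 (71.5-fold), the secreted phosphoprotein SPP1 (52.4-fold), FAM89A (41.8-fold on the brighter of 2 probe sets, the other being called higher in MF) and the loci LOC699924 (at least 85.1-fold) and LOC699676 (at least 75.3-fold). On the PG-haESC, POU5F1 ran from 17259.6 to 33612, SOX2 from 11468 to 17023 and SPP1 from 7855 to 20671.

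**Figure D3:**
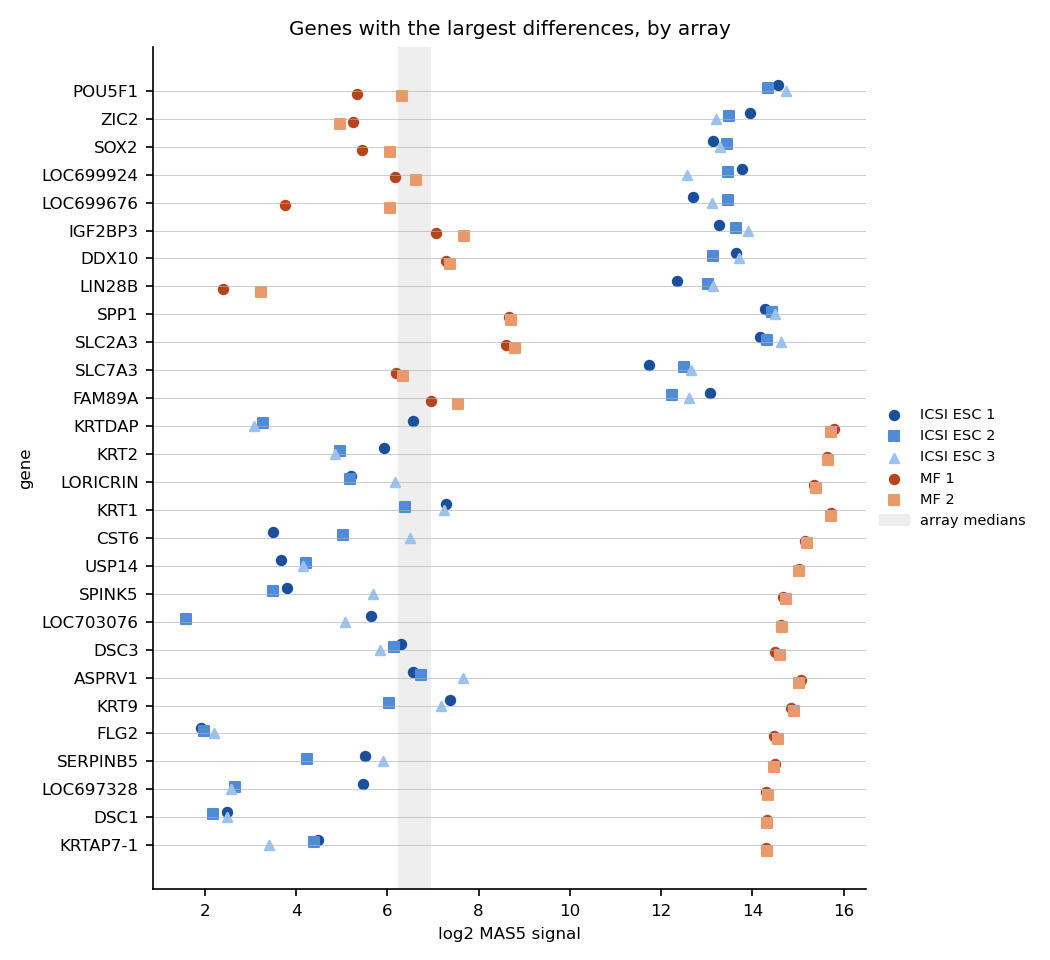
Log2 signal (x axis) of the 12 genes with the largest fold on the ICSI ESC side and the 16 on the MF side (y axis) on each of the 5 arrays (points), with the range of array medians in grey. The groups are separated for every gene, and the 2 MF arrays nearly coincide for the genes that are bright there.

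Among 16 core pluripotency genes on the array, 13 were called higher in the ICSI ESC, beside 22.5% of all tested genes, with a median difference of 4.57. Besides the circuit itself, SALL4, a zinc finger partner of POU5F1, read 2561, 3810.0 and 3533 against 59.4 and 114, and DPPA4, a chromatin protein of pluripotent cells, 2717, 4086 and 4551 against 20.3 and 49.3. The de novo methyltransferase DNMT3B read 9593, 12022 and 15076 against 389 and 363, 31.99-fold higher, a log2 difference of 5.0 ± 0.25 (SE, limma adjusted p = 9e-08). These rose on all 3 lines alike. ZFP42 (REX1) did not: it read 92.8, 1369 and 1222, so that ICSI ESC 1 was dim while the other lines were bright, against 54.4 and 46.6 on MF. The call for ZFP42 (limma adjusted p = 0.022) rests on ICSI ESC 2 and 3. The members not called were NANOG, UTF1 and DPPA5. The NANOG probe set read 2434, 1467 and 1355 on the ICSI ESC and 2083 and 1904 on MF, a difference of -0.24 ± 0.37 (SE, log2, limma adjusted p = 0.68), so on this array it did not separate the cells. Only 1 probe set carries that symbol, and what else it may detect was not tested.

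All 10 primed-state genes were higher in the ICSI ESC, with a median difference of 4.05. CYTL1, a small secreted protein, read 1951, 2878 and 2162 against 110.2 and 92.5 (at least 19.9-fold), and the neural progenitor factor SOX11 read 2766, 2939.8 and 2823 against 17.4 and 54.98 (at least 24.6-fold). The zinc finger factor SALL2 read 1381, 1147 and 1248 against 139 and 176 (8.02-fold). The naive-state list split instead. NLRP7, a maternal-effect gene, and the nuclear receptor NR5A2 were called higher in the ICSI ESC. KLF4, KLF5 and KLF2, factors of the naive state, were called higher in MF. Of these, KLF4 is also used by skin in its barrier. KLF4 read 7651, 934 and 1889 against 26417 and 24687, 10.7-fold higher in MF (limma adjusted p = 0.0071), with no overlap, and ICSI ESC 1 was the brightest of the 3 lines. KLF5 read 1427, 6385 and 3566 against 12765 and 13046 (4.04-fold, limma adjusted p = 0.016). Without MF 1 or without MF 2, the count of naive-state genes higher in MF was 1.

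Of the oncofetal RNA-binding proteins, IGF2BP3 and IGF2BP1, which stabilise fetal transcripts, joined LIN28B: IGF2BP3 read 9880.1, 12785 and 15250.3 against 135 and 205 and IGF2BP1 340.0, 574 and 514 against 64.7 and 72.2. IGF2BP2 was not called (limma adjusted p = 0.25) and was dim on both MF arrays. In the telomerase set, 4 of 8 genes were higher in the ICSI ESC and 1 in MF, beside 22.5% and 17.0% of all tested genes. Components of the telomerase RNA particle rose: GAR1 read 2531, 4135 and 4060.1 against 1007 and 957 (3.56-fold), DKC1 4472, 7427 and 7688 against 2637 and 2483 (2.48-fold) and NHP2 8955, 11768 and 9065 against 4998 and 4751 (2.02-fold). These proteins also serve ribosomal RNA modification. TERT, the catalytic subunit, read 181, 108 and 134 against 70.7 and 57.6 and was not called (limma adjusted p = 0.19). TINF2, a shelterin protein at telomere ends, was higher in MF at 659 and 695 against 393, 271 and 281.

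Genes of the signals that sustain the primed state were called in both directions. In the NODAL and activin pathway 5 of 11 genes were called higher in the ICSI ESC and 2 in MF, with a median of 0.62. Over all tested genes the shares were 22.5% and 17.0%, and the MF count is near its share. The ligand NODAL read 1254, 1633 and 867 against 34.4 and 70.4 (at least 10.5-fold), and the related ligand GDF3 339.6, 662 and 878 against 16.04 and 6.02 (at least 5.03-fold). FST, the secreted activin trap follistatin, read 9904, 7028 and 8592 against 1547 and 1469 (5.59-fold, limma adjusted p = 4.7e-05). Receptors went both ways: ACVR2B read 653, 740.2 and 669.9 against 217 and 125 (4.16-fold), whereas ACVR1B and ACVR2A were called higher in MF. The SMAD proteins of the list, which carry the signal to the nucleus, were not called.

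In the FGF and ERK list, 7 of 13 genes were called higher in the ICSI ESC and 3 in MF. FGF2, the growth factor that primed cells need, read 1662, 703 and 908 against 85.9 and 64.9 (at least 8.82-fold, limma adjusted p = 7e-05), with ICSI ESC 1 the brightest. FGF13, an intracellular FGF family member, read 2891, 3732 and 3141 against 358 and 419.8 (8.35-fold). Genes that ERK activity induces went both ways. SPRY4 and ETV4 were higher in the ICSI ESC. SPRY4 read 887, 1609 and 1029 against 95.9 and 92 (at least 9.82-fold) and ETV4 1198, 2165 and 1707 against 207 and 99.7 (11.4-fold). Those called higher in MF were the receptors FGFR2 and FGFR3, both used by epidermis, and the ERK feedback gene SPRY1. FGFR3 read 734, 694 and 658 on the ICSI ESC and 4642 and 4865 on MF.

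Both groups carried epithelial genes, of different kinds. CLDN6, a tight junction claudin of early epithelia, read 1602, 2328 and 1779.9 against 57.3 and 89.1 (at least 16.2-fold), and CLDN7 610.2, 2353 and 1595 against 77.2 and 118 (13.8-fold). KRT8, a simple-epithelial keratin, read 452, 901 and 667 against 83.1 and 61.7 (at least 5.597-fold). In all 5 of 12 junction genes were higher in the ICSI ESC, which fell to 3 without MF 1. CD9, a tetraspanin, and CLDN4 were higher in MF, CD9 at 26019 and 27867 against 14799.7, 11663 and 11545. The median difference over the 12 was -0.58 (log2, ICSI ESC minus MF), and 0.65 with a filter at the 75th percentile. The probe set of CDH1, the adhesion protein of epithelia, was low throughout, at 68.5, 56.4 and 17.7 against 101 and 59.2 (limma adjusted p = 0.41).

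Genes of early lineages were not silent in the ICSI ESC. Among 12 endoderm genes, 8 were called higher than in MF, which fell to 4 and 5 without MF 1 and MF 2 and to 5 without ICSI ESC 2. EOMES, a T-box factor of the primitive streak, read 1737, 3502 and 1769 against 40.8 and 60.1 (at least 19.1-fold), FOXA2 567, 1019.8 and 501 against 12.04 and 12 (at least 5.72-fold), and the lipoprotein APOA1 389, 775 and 333 against 9.96 and 6.43 (at least 4.02-fold). ICSI ESC 2 was the highest of the 3 lines for 8 of the 12, against 29.5% of all tested genes. The NODAL antagonist CER1 read 2129, 7475 and 1867, and SOX17, the endoderm factor, 857, 5070.3 and 1082 against 216 and 249, not called (limma adjusted p = 0.15). HHEX was bright in both groups, at 17175, 18671 and 22426 against 8069 and 8447 (2.34-fold).

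Of 13 mesoderm and streak genes, TBXT (brachyury), EOMES and GSC (goosecoid) were higher in the ICSI ESC, a share close to the 22.5% of all tested genes. GSC read 2103, 5070.0 and 1273 against 126 and 68.2, again highest on ICSI ESC 2, and TBXT 365, 518 and 808 against 29.8 and 9.06. WNT3 was the opposite, at 256, 396 and 291 against 2185 and 2047, 6.85-fold higher in MF. In the neuroectoderm list, ZIC2 and SOX3 were called, SOX3 at 1071, 430.4 and 924 against 56.9 and 32.4. PAX6 and DCX, which mark committed neural cells, were dim on all 5 arrays, apart from PAX6 on ICSI ESC 2, and were not called (limma adjusted p = 0.44 and 0.69).

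The trophoblast and amnion list leaned to MF, with 6 of 12 genes higher there and 2 (VTCN1 and ISL1) higher in the ICSI ESC. Its MF-higher members were TP63, GATA3, TFAP2A, TFAP2C, ELF5 and GABRP. Of these 6, 5 were still tested without MF 1 or MF 2. TP63, GATA3, TFAP2A and TFAP2C also stand in the list of epidermal factors, since trophoblast and epidermis share them. GATA3 read 612, 311 and 217 against 13639.7 and 13859 (39.8-fold), and TFAP2A 754, 133 and 129.6 against 11787 and 11329 (49.2-fold), with ICSI ESC 1 above the other lines for both.

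Enzymes of DNA methylation changed in opposite directions. HELLS, a chromatin remodeller needed for methylation, read 4685, 6926 and 6760.1 against 195 and 158 (34.4-fold, limma adjusted p = 4.9e-08). The de novo enzyme DNMT3A read 4526, 6992 and 7793 against 314 and 291 (20.7-fold), and UHRF1, which guides methylation to replicated DNA, 4481, 4469.7 and 3819.7 against 369 and 239 (14.3-fold). TET1 and TET2, which oxidise methylcytosine, crossed over. TET1 read 2351, 3781 and 3228 against 208 and 157, and TET2 324, 238 and 170.2 against 2955 and 2856 (12.3-fold higher in MF). DNMT1 and MBD2 were also called higher in MF, MBD2 with a direction that turned when its probe sets were averaged. Of the 3 genes called higher in MF, 1 was left without MF 1, MF 2, ICSI ESC 2 or ICSI ESC 3. Of 10 Polycomb genes, JARID2, PCGF6, RBBP7 and SUZ12 were higher in the ICSI ESC and CBX7 higher in MF. The shares over all tested genes were 22.5% and 17.0%. RBBP7 turned with its probe sets averaged. JARID2, which brings PRC2 to its targets, read 7442, 11748 and 15419 against 1857 and 1638 (6.33-fold), and CBX7, a PRC1 reader, 245, 179 and 223 against 1106 and 1110.1 (5.19-fold higher in MF).

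Cell cycle genes set the groups apart nearly as a block. Among 25 G1/S and replication genes, 21 were higher in the ICSI ESC, with a median of 2.22. The helicase subunit MCM2 read 5730.1, 7017 and 7874 against 725 and 758 (9.19-fold), the sliding clamp PCNA 18826, 19103 and 19967 against 2967 and 3189 (6.27-fold), and cyclin E1 (CCNE1) 2384, 2288 and 2343 against 176 and 125 (15.8-fold, limma adjusted p = 3.9e-07). The 3 lines lay close together for each. Among 17 mitosis genes, 16 were higher and the other, CCNF, was not called, with a median of 3.33. Cyclin B1 (CCNB1) read 10086, 11608 and 9275 against 408 and 472 (23.4-fold, a log2 difference of 4.55 ± 0.20 SE, limma adjusted p = 3.2e-08). Cyclin A2 (CCNA2) read 3566, 5485 and 4420.1 against 242 and 248 (18.04-fold), and the spindle checkpoint protein MAD2L1 6014, 7652 and 6379 against 311 and 264 (23.2-fold). No array of one group overlapped the other for any of these 6 genes.

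Brakes of the cycle were fewer and mixed. RBL2 (p130), a pocket protein of resting cells, read 202, 318 and 435 against 1894 and 1913 (6.27-fold higher in MF), and the inhibitor CDKN1B (p27) 755, 1142 and 601 against 1986 and 1988 (2.47-fold). CDKN2C and CDKN2D were also called higher in MF and GADD45A higher in the ICSI ESC, out of 11, and the 4 MF calls became 2 without MF 2. CDKN2A, which accumulates in ageing cultures, read 149, 71.8 and 106 against 117 and 138 (limma adjusted p = 0.88). Of 14 DNA repair genes, 12 were higher in the ICSI ESC, with a median of 1.80. The checkpoint kinase CHEK1 read 1521, 2292 and 2404 against 198 and 154 (11.6-fold), the mismatch protein MSH6 8323, 8723 and 8891 against 1805 and 1740.2 (4.88-fold), and FANCD2 of crosslink repair 714, 924 and 929 against 168 and 132 (5.703-fold).

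Growth machinery rose by smaller steps. Ribosome biogenesis genes were higher in the ICSI ESC for 14 of 16, with a median of 1.28, and for 1 of 16 when only changes beyond 2-fold were called. NOP56, a core of the nucleolar RNA-modifying particle, read 6523, 9117 and 9916 against 1833 and 1828 (4.58-fold), and NOLC1 5130.1, 7431 and 6317 against 2588 and 2195 (2.61-fold). Of 16 splicing genes 13 were higher, with a median of 1.53. The Sm ring protein SNRPF read 11909.5, 13523 and 13729 against 2581 and 2959.6 (4.71-fold), and the U1 protein SNRPC 7719, 9661 and 8978 against 2616 and 2666 (3.31-fold). Respiratory chain genes were called for 12 of 23, with a median of 0.59, led by COX5A at 13729.6, 14639 and 14595 against 4635 and 4694 (3.07-fold). For a change beyond 2-fold that count was 1.

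Glycolysis was higher for 10 of 16 genes and lower for PFKP, whose call was lost without MF 1, MF 2, ICSI ESC 2, PG-haESC 1 or PG-haESC 2, with a median of 1.24. Beside SLC2A3, the lactate carrier SLC16A1 read 6774, 8433 and 9637 against 1455 and 1639.5 (5.31-fold), GAPDH 17402, 13602 and 14376 against 2416 and 2379 (6.27-fold) and PKM 718, 779 and 821 against 108 and 186 (5.46-fold). GAPDH is also the gene whose 3' to 5' ratio differed between the groups, and the part of that ratio in its difference was not tested. ICSI ESC 3 was the brightest line for 11 of the 16.

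**Figure D4:**
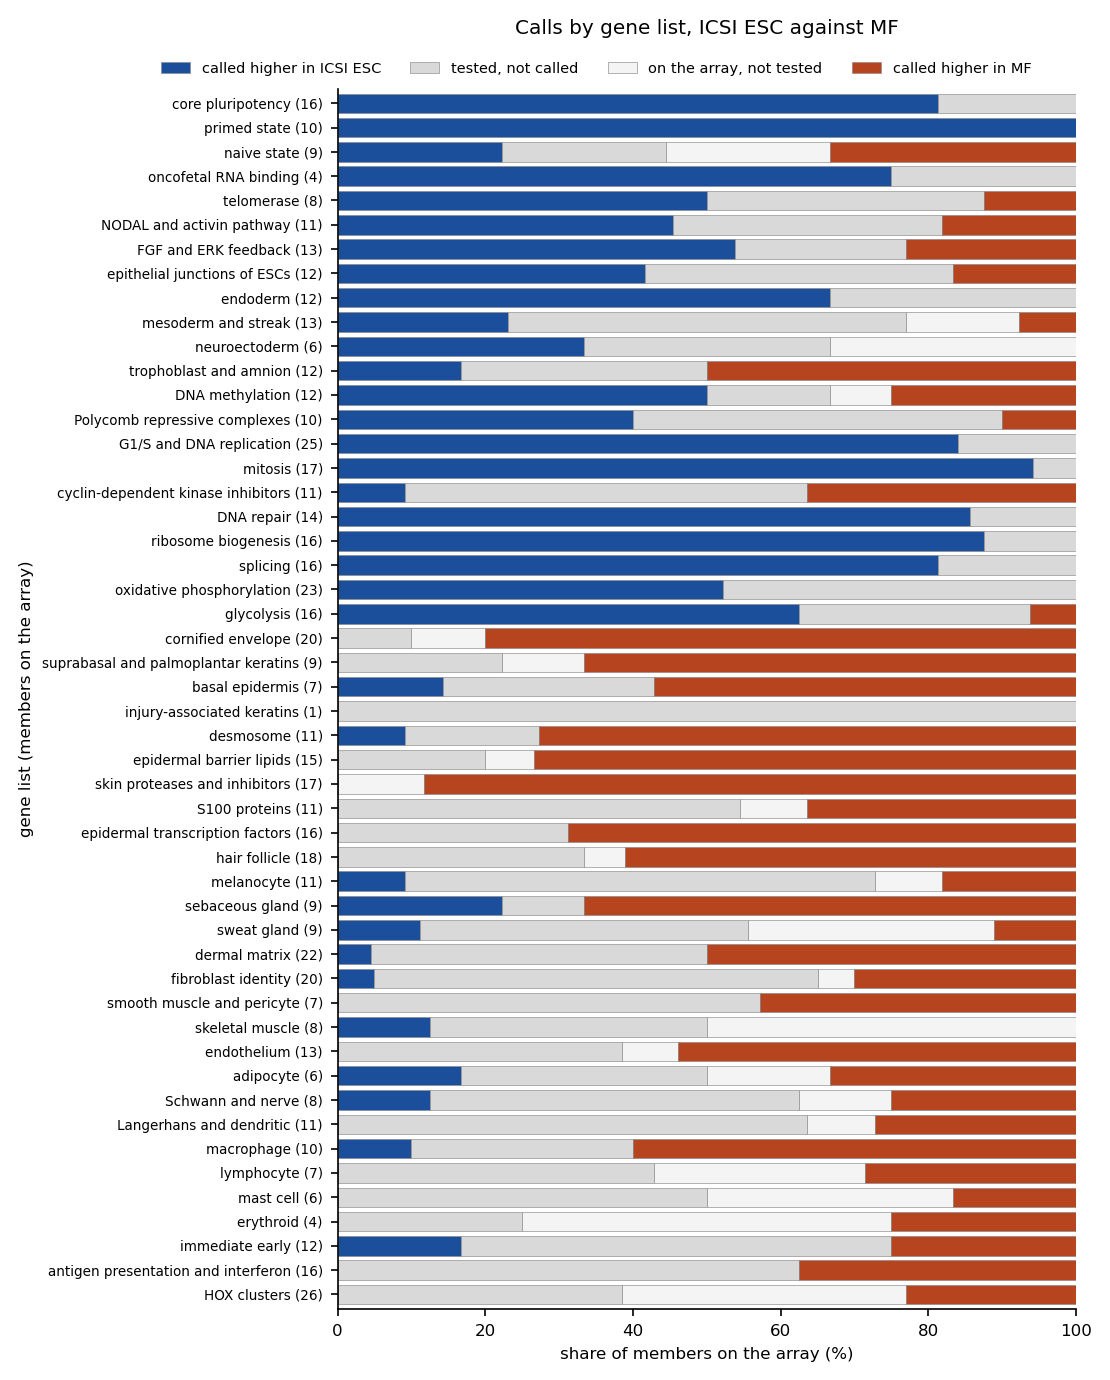
Share of the members of each gene list (y axis, with the number on the array) that were called higher in the ICSI ESC (blue), tested but not called (grey), not tested (white) or called higher in MF (red), in percent of members on the array. The lists of core pluripotency, primed state, replication, mitosis, DNA repair, ribosome biogenesis and splicing are mostly blue. Those of the cornified envelope, desmosomes, barrier lipids, skin proteases, hair follicle and sebaceous gland are mostly red, beside 22.5% and 17.0% of all tested genes.

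On the MF side the leading genes were those of the outer epidermis. KRTDAP, a keratinocyte differentiation protein, read 56628 and 54247 on MF 1 and 2 and 93.9, 9.73 and 8.39 on ICSI ESC 1, 2 and 3, at least 583-fold higher in MF (limma adjusted p = 0.0001). LORICRIN, the main protein of the cornified envelope, read 41861 and 43154 against 36.95, 35.99 and 71.6 (at least 447-fold, limma adjusted p = 1.9e-06). All 3 ICSI ESC arrays were dim for both genes. KRT2, a keratin of the upper spinous and granular layers, read 50501 and 51488 against 60.7, 31.3 and 28.7 (at least 536-fold). KRT9, a keratin known from palm and sole, read 29482 and 30776 against 165, 65.4 and 144 (260.2-fold, limma adjusted p = 3.1e-06). The other of its 2 tested probe sets was not called, and the mean of both differed by -4.57 (log2, ICSI ESC minus MF). The hair shaft protein KRTAP7-1 read 20219 and 20317 against 22.4, 21.02 and 10.6 (at least 213-fold). The others among the 16 were KRT1, the protease inhibitors CST6 and SPINK5, the serpin SERPINB5 and the desmosomal cadherins DSC3 and DSC1. The 16 also held the protease ASPRV1, the filaggrin relative FLG2, USP14 and the loci LOC703076 and LOC697328. Their folds ran from 213 to 583, 13 of the 16 being bounds. KRTDAP, LORICRIN, KRT2, KRTAP7-1, SPINK5, SERPINB5, DSC1, FLG2, USP14 and LOC697328 passed the filter through the MF arrays alone. None of them could be tested without MF 1 or MF 2. USP14, a proteasome deubiquitinase, is read by 5 probe sets, all called higher in MF. Its identity here rests on the platform annotation alone.

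Of 20 cornified envelope genes, 16 were higher in MF, beside 17.0% of all tested genes, with a median of -4.30. Of the 16, 8 passed the filter through the MF arrays alone, so with 1 MF array left out they were no longer tested and 7 calls were left without MF 1 and 7 without MF 2. ASPRV1, which processes filaggrin, read 34449 and 33021 against 93.8, 107 and 202 (266-fold). DMKN (dermokine) read 27022 and 26221 against 265, 190.5 and 103 (154-fold, limma adjusted p = 5.5e-06), and SBSN (suprabasin) 16712 and 19663 against 42.8, 14.01 and 46.9 (at least 191-fold). IVL (involucrin), laid down first in the envelope, read 1642 and 1663 against 16.2, 20.2 and 37.5 (at least 17.4-fold). The 2 tested members that were not called were CRNN and TGM3, and SPRR3 and CASP14 were not tested.

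The keratins of the layers differed. KRT1 read 53895 and 53774 against 156, 83.4 and 151 (430.1-fold, a log2 difference of 8.75 ± 0.45 SE, limma adjusted p = 1e-07), and its partner KRT10 read 54024 and 54598 against 4430.0, 4118 and 3516 (13.6-fold). The other tested KRT10 probe set was called higher in the ICSI ESC, and the mean of both differed by -1.37 (log2, ICSI ESC minus MF). KRT10 was well above the median on the stem cell arrays too, at 2573 to 3396 on the PG-haESC. In all, 6 of 9 suprabasal keratins were higher in MF. Of the 6, 4 were still tested without MF 1 or MF 2. KRT16, which appears in wounded skin, is read by 4 tested probe sets. The brightest was not called, at 333 and 352 against 150.4, 229.6 and 261 (limma adjusted p = 0.28), and the other 3 were called higher in MF. In the basal epidermis, 4 of 7 genes were higher in MF. TP63, the regulator of stratified epithelia, read 14270.3 and 14624 against 80.9, 80.1 and 46.9 (215-fold, 149.7-fold raised, limma adjusted p = 1.6e-06). LAMA3 and ITGB4, which anchor basal cells, read 1799 and 1657 against 88.8, 6.56 and 18.7 and 607 and 848 against 107, 46.2 and 77.6. With the tested probe sets of each gene averaged, LAMA3 and ITGB4 lost the call, and the basal count higher in MF was 1. KRT19 was the exception, higher in the ICSI ESC at 1221, 2792 and 2833 against 468 and 565.

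Desmosomes, the junctions that hold keratinocytes together, were higher in MF for 8 of 11 genes. Of the 8, 6 were still tested without MF 1 or MF 2, and the count was 5 each time. DSC3 read 23041 and 24744 against 78.7, 70.4 and 57.6 (at least 251-fold), DSG1 10262 and 11303 against 110.2, 38.9 and 69.8 (at least 113-fold), and the plaque protein DSP 44040.3 and 47568 against 2888, 7365 and 4335 (10.1-fold). DSP was thus present in both groups, as was PERP, at 45511 and 46559 against 3506, 5992 and 2619.7 (12.1-fold). DSG2, the desmoglein of simple epithelia, went the other way, at 908, 1919 and 923 in the ICSI ESC and 271 and 272 in MF.

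Barrier lipid genes were higher in MF for 11 of 15, with a median of -3.35. Of the 11, 6 were still tested without MF 1 or MF 2, and the count was 4 each time. ABCA12, the lipid carrier of lamellar granules, read 1039 and 1021 against 10.2, 2.06 and 6.101 (at least 10.8-fold), and ELOVL1, which extends ceramide fatty acids, 3539.7 and 4072 against 376, 375 and 365 (10.2-fold, limma adjusted p = 1.5e-05). The ceramide synthase CERS4 read 1405 and 1516 against 69.8, 202 and 132 (11.9-fold). The proteases that shed skin and their inhibitors were higher in MF for all 15 tested of 17. Of the 15, 13 were still tested without MF 1 or MF 2, and 9 were called. The kallikrein KLK7 read 40962 and 39569 against 286, 428 and 282 (124-fold, limma adjusted p = 8.9e-08), and SPINK5, its inhibitor, 26151 and 27343 against 13.97, 11.2 and 51.3 (at least 281-fold). The protease inhibitor CSTA (cystatin A) read 9322 and 9559 against 106, 84.2 and 81.7 (105-fold, 96.2-fold raised).

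S100 proteins were higher in MF for 4 of 11, S100A2, S100A11, S100A8 and S100A9. Without MF 1 or MF 2, 2 of the 4 were still tested, and the count was 2. S100A2 read 12188 and 12032 against 212, 155 and 201 (64.5-fold). S100A8 and S100A9, which rise in inflamed epidermis, read 564 and 566 and 416 and 400.4 on MF and were dim on the ICSI ESC. Of 16 epidermal transcription factors 11 were higher in MF, with a median of -3.39. ZNF750, which drives late differentiation, read 6775 and 7741 against 18.4, 35.9 and 47.9 (at least 76.1-fold). GRHL1 read 12171 and 11154 against 296, 218 and 147 (54.98-fold, limma adjusted p = 1.8e-06), and OVOL1 2719.8 and 2586 against 243, 474 and 226 (8.95-fold).

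Genes of skin appendages were bright on the MF arrays. Of 18 hair follicle genes 11 were higher in MF, with a median of -4.45. Without MF 1 or MF 2, 8 of the 11 were still tested, and the count was 7. TCHH (trichohyalin), which hardens the inner root sheath, read 20436 and 19412 against 62.2, 50.2 and 14.4 (at least 209-fold). The inner root sheath keratins KRT25, KRT28 and KRT71 read 6192 and 5977, 4635 and 4429, and 4323 and 4284 on MF 1 and 2 and stayed at or under 128 on the ICSI ESC. Hair shaft keratins were present as well, KRT35 at 1819.8 and 2027 against 96.4, 71.4 and 8.76 and KRT85 at 1219.5 and 1359 against 67.8, 17.05 and 118.

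In the sebaceous gland list 6 of 9 genes were higher in MF, and FADS2 and MGST1 were higher in the ICSI ESC. Of the 6, 2 were still tested without MF 1 or MF 2, and the count was 2. ELOVL3, a fatty acid elongase of sebum, read 9076 and 9343 against 61.3, 23.2 and 109 (172-fold, 92.8-fold raised). The wax ester synthase AWAT2 read 1137 and 1221 against 18.5, 9.71 and 11.5 (at least 12.4-fold), and PPARG, the regulator of sebocytes and fat cells, 1138 and 1159 against 15.4, 2.06 and 4.38 (at least 12.1-fold). Sweat gland genes gave little: PIP was higher in MF, at 1361 and 1429 against 384, 623 and 334 (3.24-fold), KRT8 higher in the ICSI ESC, and DCD (dermcidin), the defining eccrine product, was not tested.

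Pigment cell genes were few and split. TYR (tyrosinase), which makes melanin, read 394 and 404 against 18.4, 6.12 and 19.1 (at least 4.196-fold, limma adjusted p = 0.0059), and TYRP1 692 and 741 against 36.8, 2.74 and 25.8 (at least 7.53-fold). Both were dim on every ICSI ESC array, so neither could be tested without MF 1 or MF 2. MITF, the regulator of pigment cells, was the reverse, at 3056, 4962 and 4962 in the ICSI ESC and 471 and 468 in MF. That direction turned when all tested probe sets of the gene were averaged. PMEL, a melanosome protein, was dim on both MF arrays.

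Counts of dermal genes moved with ICSI ESC 1, as did those of the antigen presentation and HOX lists below. Of 22 matrix genes, 11 were higher in MF and 1, COL5A2, higher in the ICSI ESC, with a median of -2.62. Without ICSI ESC 1 the MF count was 16, without ICSI ESC 3 it was 7, and without MF 1 or MF 2, where 9 of the 11 were still tested, it was 6 or 3. COL1A1, the chain of the main dermal collagen, read 8122 and 9202 on MF and 1825, 143 and 502 on the ICSI ESC (17.02-fold, a log2 difference of 4.09 ± 1.13 SE, limma adjusted p = 0.015). COL1A2, its partner, read 63944 and 63905 against 37522, 1124 and 8193 and was not called (limma adjusted p = 0.11). ICSI ESC 1 lay nearest to MF there and ICSI ESC 2 farthest below. ASPN (asporin), a small proteoglycan, was dim on all ICSI ESC arrays, at 5677 and 5909.7 against 56.9, 12.5 and 6.85 (at least 60.9-fold). FBLN1 read 7131 and 7025 against 2015, 825 and 818 (6.39-fold), and COL3A1 816 and 845 against 403, 138 and 87.3 (4.91-fold). COL5A2 read 17307, 19263 and 21028 in the ICSI ESC and 5392 and 4999 in MF (3.69-fold), a direction that turned when the probe sets of the gene were averaged.

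The fibroblast identity list gave 6 of 20 genes higher in MF, PRRX1, MEOX2, LOX, CFD, APOD and TCF4, and SFRP2 higher in the ICSI ESC. PRRX1, a mesenchymal homeobox factor, read 6360.3 and 6684 against 464, 7.79 and 55.2 (112-fold, 43.4-fold raised, limma adjusted p = 0.0019). CFD, the adipsin of fat and dermis, read 3978 and 4353 against 57.1, 71.97 and 111 (54.03-fold, 41.6-fold raised). Other defining genes did not separate the groups. VIM (vimentin) read 35417 and 36028 against 55913, 9692 and 18527 (limma adjusted p = 0.59), and the surface protein THY1 1864 and 1549 against 4889.7, 1203 and 2133 (limma adjusted p = 0.55). The count was 8 without ICSI ESC 1, 3 without ICSI ESC 2, and 3 without MF 1 or MF 2, where 5 of the 6 were still tested.

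Some genes of vessels and muscle were called higher on the MF arrays as well. Of 13 endothelial genes 7 were higher in MF. Of the 7, 4 were still tested without MF 1 or MF 2, and the count was 3. EMCN (endomucin) read 1747 and 1909 against 98.03, 24.02 and 5.62 (at least 19.2-fold), PECAM1 2842 and 2823 against 404, 112 and 140.0 (15.3-fold, limma adjusted p = 0.0018), and VWF 1107 and 1329 against 32.7, 336 and 32.2 (17.1-fold, 7.79-fold raised). PROX1, a factor of lymphatic vessels, was among the 7. MYH11, the myosin of smooth muscle, read 4509 and 4532 against 123, 169 and 147 (31.1-fold), one of 3 of 7 smooth muscle genes called. CKM, the creatine kinase of skeletal muscle, was dim on both MF arrays, where it read 17.7 and 16.5, and read 973, 515 and 278 in the ICSI ESC.

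Fat and nerve gave short lists. FABP4, a fatty acid carrier of fat cells and small vessels, read 8502 and 9113 against 78.5, 133 and 35.05 (123-fold, 77.1-fold raised), and CD36 2194 and 2063 against 91.9, 79.6 and 78.2 (25.6-fold, 22.1-fold raised). ADIPOQ (adiponectin), the defining product of fat cells, was higher in the ICSI ESC, at 2084, 1863 and 2089 against 402 and 514 (4.42-fold). Of its 3 tested probe sets, 1 was called higher in MF, and ADIPOQ was no longer called when they were averaged. S100B, found in Schwann and pigment cells, read 469 and 522 against 12.1, 35.7 and 15.6 (at least 5.201-fold), and the Schwann marker CDH19 was dim on all 5 arrays.

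Some genes of immune cells were called higher on the MF arrays. PTPRC (CD45), carried by all leukocytes, read 1412 and 1441 against 39.6, 1.86 and 45.01 (at least 15-fold, limma adjusted p = 0.0021). Of 10 macrophage genes 6 were higher in MF, of which 2 were still tested without MF 1 or MF 2, with a count of 1, and MRC1 higher in the ICSI ESC, a direction that turned when its probe sets were averaged. LYZ (lysozyme) read 7273 and 6996 against 4.12, 3.52 and 88.7 (at least 75.01-fold), and the receptor CSF1R 752 and 803 against 31.8, 26.4 and 44.1 (at least 8.17-fold). CPA3, a protease of mast cells, read 2620.4 and 2379.5 against 28.5, 39.1 and 2.88 (at least 26.3-fold). It was dim on every ICSI ESC array and could not be tested without MF 1 or MF 2. Of 11 Langerhans and dendritic genes, CD1A, CD74 and FCER1A were called higher in MF, beside 17.0% of all tested genes. CD1A read 1077 and 1186 against 129, 26.8 and 37.9 (22.3-fold, 11.5-fold raised). Of these 3, 1 was still tested without MF 1 or MF 2, and the count was 1. CD207 (langerin), which defines Langerhans cells, was not called, at 198 and 118 against 110.1, 39.05 and 26.97. HBB, the beta globin of red cells, read 1111 and 996 against 188, 93.3 and 39.9 (11.9-fold).

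Antigen presentation and interferon genes were higher in MF for 6 of 16 and for 10 without ICSI ESC 1, which was the highest of the 3 ICSI ESC arrays for 15 of the 16. TAPBP, a loader of MHC class I, read 2041 and 2272 against 482, 244 and 321 (6.41-fold), and the interferon-induced IFIT3 1343 and 1299.6 against 272, 74.2 and 88.4 (10.9-fold, 10.5-fold raised). Without MF 1 or MF 2, 5 of the 6 were still tested, and the count was 3. Immediate early genes went both ways: DUSP1 and ZFP36, which dampen stress signals, were higher in MF together with FOS, whose call was lost without any 1 of the 5 arrays compared, DUSP1 at 22736 and 22543 against 5294, 4496 and 3607 (5.13-fold). ATF3 and NR4A1 were higher in the ICSI ESC, ATF3 at 2203, 3682 and 3698 against 312 and 394 (8.87-fold).

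HOX genes record position along the body and are largely off in early embryonic cells. Of 26 on the array, 16 were tested, 6 were called higher in MF, and the median over all 26 was -1.07. HOXA9 read 5169 and 4990.4 against 240.0, 43.1 and 146 (44.3-fold, limma adjusted p = 3.9e-05), HOXA5 2948 and 2778 against 395, 66.8 and 109 (20.1-fold), and HOXA7 458 and 536 against 36.6, 7.27 and 18.5 (at least 5.21-fold). These, with HOXA3 (at least 4.72-fold), are genes of the A cluster. HOXC13, which hair follicles use, read 515 and 585 against 53.8, 75.1 and 136 (6.701-fold, 5.13-fold raised), and HOXD10 1172 and 946 against 818, 472 and 402 (1.96-fold). Without ICSI ESC 1, 9 were called higher in MF. That array was the highest line for 21 of the 26, against 42.0% of all tested genes. Without MF 1 or MF 2, 5 of the 6 were still tested, and the count was 3 or 2.

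Some genes called higher in MF are neighbours in the order of tested genes. In the gene order of RefSeq assembly T2T-MFA8v1.1, 90.6% of tested genes could be placed. In the runs below, genes not tested or not placed were passed over, so members need not be direct neighbours in the genome. The longest run of consecutive tested and placed genes called higher in MF held 8: TMX3, DSEL, SERPINB2, SERPINB7, SERPINB13, SERPINB5, VPS4B and KDSR. The 4 genes in its middle are serpins known from keratinocytes. SERPINB7 read 5738 and 5924 against 205, 10.96 and 19.4 (166-fold, 50.9-fold raised) and SERPINB2 11108 and 11099.5 against 1464, 40.9 and 124 (56.96-fold). A run of 6 held the protease inhibitors WFDC5, WFDC12, PI3 and SLPI with MATN4 and SDC4, WFDC5 at 2855 and 3004 against 229, 66.99 and 50.5 (31.9-fold, 24.6-fold raised). Runs of 5 held S100A8, S100A9, LORICRIN, SPRR1B and IVL, part of the epidermal differentiation complex, and the kallikreins KLK5, KLK6, KLK7, KLK8 and KLK10. Each of these runs depends on both MF arrays. Without MF 1 and without MF 2, the call was lost for DSEL, SERPINB2, SERPINB13, KDSR, WFDC12, MATN4, SDC4 and KLK6. S100A8, S100A9, LORICRIN and IVL could not be tested there. The longest runs called higher in the ICSI ESC held 5 genes. Signals of near-identical neighbours may be shared between probe sets.

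The 8 tested genes with the largest range over the 3 ICSI ESC lines were IL6, DCN, MMP3, CCL2, TNC, CXCL8, MMP1 and TNFRSF11B, with ranges of 6.69 to 7.94 on the log2 scale, and for each ICSI ESC 1 was the highest and ICSI ESC 2 the lowest. MMP1, a secreted collagenase, read 84234, 742 and 5669.9 on ICSI ESC 1, 2 and 3. The cytokine IL6 read 18888, 39.02 and 506, and the matrix proteoglycan DCN (decorin) 39481, 182 and 1713. The MF arrays did not match ICSI ESC 1 in these genes. They read 195 and 182 for MMP1, 99.4 and 60.2 for IL6 and 45.7 and 46.9 for the chemokine CXCL8, far below ICSI ESC 1, but 49727 and 48614 for DCN, above it. Between the groups their limma adjusted p ran from 0.062 for MMP1 to 0.87 for TNC. On the PG-haESC, MMP1 ran from 603 to 28352 and DCN from 367 to 16850.0. Dermal matrix and fibroblast identity genes were highest on ICSI ESC 1 for 34 of 42, against 42.0% of all tested genes. Feeder cells, passage and line differ or may differ between these arrays, and their part in this was not tested.

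The MF arrays hardly differed from each other. The 6 tested genes with the largest difference between them differed by 1.32 to 1.47 on the log2 scale. Imprinted genes, which are read from 1 parental copy, gave mixed values. SNRPN, read from the paternal copy, stood at 18588, 20957 and 26541 against 1682 and 1459 (13.9-fold higher in the ICSI ESC, limma adjusted p = 0.00041). PEG3, also paternal, read 3.63, 482 and 447, so that ICSI ESC 1 was far under its median while the other lines were above theirs, and 149 and 185 on MF (limma adjusted p = 0.77).

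Some calls rest on 1 array or 1 probe set. Of 216 called genes named here, 40 lost the call while still tested with 1 of the 10 arrays left out, 38 of them without an MF array. On the ICSI ESC side they were CER1, FADS2, GSC, MRC1, NR4A1, SUZ12, TBXT, VTCN1 and ZFP42. On the MF side they included COL1A1, COL3A1, KLF2, KLF5, HOXA3, HOXC13, HOXD10, PTPRC, SERPINB2, SERPINB13, TINF2, LOX, TCF4, APOD, PROX1, ELF5 and GABRP, besides DNMT1, MBD2, PFKP and FOS. Without MF 1 or without MF 2, 32 of the 216 could not be tested, so leaving out an MF array could not end their calls. Of the 216, 97 had more than 1 tested probe set. With these averaged, 10 lost the call: ADIPOQ, ATF3, COX5A, DSEL, DSG2, FADS2, HOXD10, ITGB4, LAMA3 and PROX1. Another 5 turned direction, and 39 kept the call with a fold that moved by more than 1.5 times. CCNF, KRT16, LUM and MMP1, not called on their brightest probe set, passed when averaged.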

How the data were processed

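Signal intensity was deposited by the authors as a linear value per probe set and array, made with MAS5 per the submitters' processing notes. No version of MAS5 is given in the sources used here. The growth protocol in the labels describes the haploid ESCs, and none of its own is given for the MF cells.

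Of 52865 probe sets, 158 were controls, which were dropped, and 34139 exceeded the median of their array on 2 or more arrays and were tested. Log2 signals of all 10 arrays were fitted in limma 3.58.1 (R 4.3.3) with group means, the cell line as a random block (consensus correlation 0.286) and a variance trend. Tests were two-sided, with Benjamini-Hochberg adjustment over the 34139, and a call needs an adjusted p under 0.05. In the platform annotation, 24956 probe sets had 1 symbol, 361 several and 27390 none, and 89.0% of the symbols were in the RefSeq table. A gene is its tested probe set with the highest mean log2 signal. Where every array of the dimmer group was at or under its median, signals were raised to that median and the fold is given as "at least". The fit was also run on simulated data, and the outcome of that run is not given here. Array data carry no depth, and the number of arrays limits the precision.

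Members and lists were chosen with earlier results of these data known. Genes named are the 12 and 16 leading genes, up to 4 per list with the smallest p, a fixed set, the most variable genes, HOX genes called and the longest runs. Others with values (SALL4, DPPA4, ZFP42, CER1, SOX17, TERT, FGFR3, TET1, TET2, CDKN2A, DSG2, KRT35, KRT85, LUM) and members named to complete a count were singled out after their values were seen. Alternatives covered the block, the scaling, the filter, the variance trend, passage, the choice of probe set, a 2-fold threshold and each array left out.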

Additional observations from a re-analysis of the deposited data

How the results depend on the processing

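Over 24 alternatives, 216 called genes that are named here gave 131 that stayed called in every alternative that tested them, 83 that lost the call in at least 1 and 2 (COL5A2 and MITF) whose direction turned in 1 and that stayed called in the others. Calling only changes beyond 2-fold left 3240 probe sets, 702 genes higher in the ICSI ESC and 692 higher in MF. Genes higher in MF numbered 1286 with the arrays of a line averaged and 1255 with arrays centred on their median. Leaving out each array in turn gave 7703 to 12680 probe sets called, 2084 to 2918 genes higher in the ICSI ESC and 1200 to 2318 higher in MF. The lowest MF counts came without MF 1 (1200) and without MF 2 (1221). There 1775 of the 1986 genes called higher in MF were still tested, since 1 remaining MF array cannot pass the filter alone, and the lone array was assumed to vary like the others. Passage as a covariate ended 41 of the 216 named calls and averaging the arrays of a line 37. With only the 5 arrays the line block could not be fitted and was left out, which ended 3.

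Directions turned as follows, in log2 of ICSI ESC minus MF. With the probe sets of a gene averaged, COL5A2 was -0.20, MBD2 0.82, MITF -0.24, MRC1 -2.68 and RBBP7 -0.40. The cause was not tested. The other genes that turned had not been called. They were NANOG at 0.048 with centring, CDKN2A at 0.039 with quantile normalization, PAX6 at 1.29 with no filter and PEG3 at 0.055 with an offset of 32. With signals raised to the median they were DCX at -0.28, DPPA5 at -0.28, IGF2BP2 at -0.13 and PEG3 at 0.82. With passage as a covariate they were CD207 at 1.18, CDH1 at 0.0050, DCN at 0.72, DCX at -0.47, NANOG at 0.40 and VIM at 1.20. With 1 array left out at a time, the lowest and highest values were -0.73 and 3.12 for CCL2, -0.37 and 3.58 for MMP3, -2.05 and 1.48 for PEG3, -0.085 and 0.93 for THY1, and -1.29 and 2.31 for TNC, all turned without ICSI ESC 1. They were -0.019 and 0.82 for DPPA5, turned without MF 1, and -0.14 and 1.24 for DCX, turned without MF 2. Of 2400 list counts under the alternatives, 2175 were within 1.5 times the reported count. No paired analysis was possible because numbers in the labels name lines and arrays, not pairs.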

Other observations

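Of the 11150 probe sets called, 3912 carry no gene symbol in the platform annotation and are in no list. Of 2233 called genes with at least 2 tested probe sets, 749 had all of them called the same way and 114 had 1 or more called the opposite way. The median signal of the spike-in controls was 7711 on ICSI ESC 1 and 8626 on PG-haESC 2, and 2823 to 4604 on the other 8 arrays.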
